A study of Homo sapiens with 8 samples.

Results

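The 35 genes described here encode nuclear subunits of the last complexes of the mitochondrial respiratory chain and of ATP synthase: 9 of complex III (cytochrome bc1), 10 of complex IV (cytochrome c oxidase) and 15 of complex V (ATP synthase), with CYCS, the mobile carrier cytochrome c. They were taken by name from a list of subunits, not by their values, although earlier results of these data were known by then. All 35 were found among the 58735 genes of the files, and all 35 passed the count filter, which left 18242 genes for testing. BEAS-2B, an established immortalized line of human bronchial epithelium, was exposed at an air-liquid interface to 1 ppm formaldehyde in humidified air with CO2, or to humidified clean air with CO2, for 2 h and then recovered for 6 h. RNA depleted of ribosomal RNA was split into an input portion, sequenced directly (CA_IN for clean air, FA_IN for formaldehyde), and a portion pulled down with an antibody against 8-oxoG, an oxidized form of guanine (CA_IP and FA_IP). Each of these 4 groups held 2 libraries, replicates 1 and 3, which the labels call biological duplicates. No mock pull-down without the antibody was analysed here, so that antibody-bound RNA and RNA carried along by the procedure cannot be told apart.

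Complex III passes electrons from ubiquinol to cytochrome c, and complex IV passes them on to oxygen; both pump protons across the inner mitochondrial membrane. Complex V uses the returning protons to turn a ring of c subunits and a central stalk inside the catalytic head, where ATP is made. The catalytic core of complex IV and a few subunits of complexes III and V are made from mitochondrial DNA, and the other subunits, described here, come from nuclear genes whose proteins are imported. Most of these imported proteins are small and their mRNAs are short.

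The 4 input libraries held 26.2 to 45.1 M expected counts and the 4 pull-down libraries 16.9 to 23.7 M, and the spread between replicates had a common edgeR dispersion of 0.019 (13.8% as a coefficient of variation). All 8 markers checked for BEAS-2B were present, from EPCAM at 42.9 to 51.1 CPM to KRT7 at 1452 to 2455 CPM. Of 10 markers of other cell types 4 passed the count filter, none above 8.71 CPM in any library. Levels between libraries are given as CPM after edgeR's TMM scaling, and levels between genes as the deposited TPM, which are corrected for transcript length.

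The coding sequences of 4 members are printed as examples from both sides of 0. COX7B and COX8A were among the members lowest in the pull-down. UQCR11 was lower although its coding sequence had the highest share of guanine among the members. ATP5F1D, the delta subunit of the central stalk, was above 0 but not called at the adjusted p limit of 0.05. The printed sequences are the coding parts of the GENCODE 44 MANE Select isoforms, 5′ to 3′ on the strand of the gene without the stop codon. Guanines, the base that 8-oxoG derives from, are in capitals. COX7B lies at chrX:77899440-77907376 (plus strand), COX8A at chr11:63974620-63976543 (plus strand), UQCR11 at chr19:1597169-1605473 (minus strand) and ATP5F1D at chr19:1241746-1244825 (plus strand) in GRCh38. Of COX7B, COX8A and UQCR11 the whole coding sequence is shown, with 80, 69 and 56 codons, and of ATP5F1D the first 240 of 504 bases.
COX7B: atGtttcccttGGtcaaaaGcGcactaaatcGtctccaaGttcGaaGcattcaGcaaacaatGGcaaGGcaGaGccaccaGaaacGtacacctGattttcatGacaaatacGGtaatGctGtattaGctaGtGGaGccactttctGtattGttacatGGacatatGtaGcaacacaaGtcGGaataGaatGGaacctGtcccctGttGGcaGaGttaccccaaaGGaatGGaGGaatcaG
COX8A: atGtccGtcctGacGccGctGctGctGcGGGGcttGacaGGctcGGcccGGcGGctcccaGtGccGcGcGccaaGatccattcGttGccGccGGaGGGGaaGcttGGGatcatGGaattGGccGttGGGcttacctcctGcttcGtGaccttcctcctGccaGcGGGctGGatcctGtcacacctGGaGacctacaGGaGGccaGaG
UQCR11: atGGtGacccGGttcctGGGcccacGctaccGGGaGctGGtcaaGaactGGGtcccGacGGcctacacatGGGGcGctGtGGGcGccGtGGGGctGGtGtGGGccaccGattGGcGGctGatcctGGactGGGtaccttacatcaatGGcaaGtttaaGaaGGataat
ATP5F1D: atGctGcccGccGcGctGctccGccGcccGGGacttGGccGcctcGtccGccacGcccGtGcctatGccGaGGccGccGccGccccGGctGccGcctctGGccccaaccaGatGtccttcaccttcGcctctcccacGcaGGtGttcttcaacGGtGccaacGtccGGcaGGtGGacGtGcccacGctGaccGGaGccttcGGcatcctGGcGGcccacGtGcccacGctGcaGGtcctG
Guanine made up 22.5% of the stretch printed for COX7B, 32.9% of that for COX8A, 35.7% of that for UQCR11 and 28.8% of that for ATP5F1D, whose whole coding sequence held 33.3%.

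In input RNA the members spanned 8.00 to 415 TPM, averaged over the 4 input libraries. COX7C, a small membrane subunit of complex IV, was highest at 415 ± 37.4 TPM (SD, n = 4). ATP5MF (subunit f of complex V, 222 ± 15.3), UQCRH (the hinge protein of complex III, 216 ± 14.8), ATP5PD (subunit d of the peripheral stalk, 213 ± 12.4) and UQCRQ (a small subunit of complex III, 212 ± 8.47) followed and lay within each other's spread. The alpha and beta subunits of the ATP synthase head, ATP5F1A (163 ± 13.9 TPM) and ATP5F1B (181 ± 14.9 TPM), lay near each other. ATP5MC1, ATP5MC2 and ATP5MC3, which encode the same mature c subunit, were at 101 ± 9.12, 70.8 ± 3.93 and 107 ± 7.40 TPM. The lowest values were those of UQCRFS1 (the Rieske iron-sulfur protein, 8.00 ± 0.570), ATP5F1D (15.0 ± 0.781) and ATP5F1E (the epsilon subunit of the central stalk, 26.8 ± 1.62). TPM depends on the annotated length, and UQCRFS1 and ATP5F1E, counted on isoforms annotated at 3475 and 3599 nt, had the longest of the members, which lowers their TPM for a given count. Together the 35 genes took 0.636% to 0.693% of all expected counts in the input libraries and 0.590% to 0.676% in the pull-down libraries.

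The study compared each pull-down with its own input to find RNA over- or under-represented in the antibody fraction. In clean air 16 of the 35 members were lower in CA_IP than in CA_IN and 0 were higher at an adjusted p under 0.05 (edgeR's quasi-likelihood test, Benjamini-Hochberg adjustment over all genes tested). Of all genes tested 1.77% were lower and 0.148% higher. After formaldehyde 16 members were lower in FA_IP than in FA_IN and 0 higher, beside 1.47% and 0.0329% of all genes. The calls were shared for 15 genes, which is 93.8% of each list: ATP5MG passed only in clean air (adjusted p = 0.0552 after formaldehyde) and COX6A1 only after formaldehyde (adjusted p = 0.0783 in clean air), and for neither was the difference between the treatments itself called. The median log2 fold change of the members was -0.50 in clean air and -0.53 after formaldehyde, against 0.02 and 0.00350 for all genes tested. With 1 library left out at a time, the count after formaldehyde was 8 without FA_IN replicate 1, 9 without FA_IN replicate 3, 8 without FA_IP replicate 1 and 10 without FA_IP replicate 3, while 11 to 16 members were lower in clean air.

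All 4 pull-down libraries lay below all 4 input libraries for 23 members, beside 5.9% of all genes tested, and all 4 lay above for 5 members, UQCRC1, CYC1, UQCRFS1, COX4I1 and ATP5F1D, beside 7.76% of all genes. The study divided each RNA pool into input and pull-down, and a shared treatment and replicate number was taken to mark 1 pool. With that pool as a block in the fit, 23 members were lower and 6 higher in clean air, beside 5.85% and 11.6% of all genes, and 23 were lower and 7 higher after formaldehyde, beside 4.6% and 5.45%. The 7 lower in clean air under that fit and not without a block were COX5A, COX6A1, COX7C, ATP5F1C, ATP5MC2, ATP5MC3 and ATP5PD, and after formaldehyde ATP5MG stood in place of COX6A1. The 6 higher in clean air under that fit were UQCRC1, CYC1, COX4I1, ATP5F1A, ATP5F1B and ATP5F1D, and UQCRFS1 was added after formaldehyde. Scaling by library size in place of TMM raised every log2 fold change by about 0.15 in clean air and 0.17 after formaldehyde, and 5 and 3 members were then called higher, beside 4.5% and 1.74% of all genes, and 16 and 14 lower, beside 1.84% and 1.33%. The number of members with a log2 fold change above 0 went from 8 to 11 in clean air and from 9 to 12 after formaldehyde under that scaling, so that directions of values near 0 depend on it. The deposited TPM are scaled to another total, and by them directions further from 0 changed too. UQCRH, called lower, held 199 to 235 TPM in input and 238 to 299 TPM in pull-down libraries. COX7B was still lower, with 148 to 201 TPM in input and 85.2 to 110 TPM in pull-down libraries. UQCRQ, UQCR10, COX6B1, COX8A and ATP5MF also had every pull-down library below every input library by TPM. For the other members called lower in either treatment, UQCRH aside, the TPM ranges of input and pull-down overlapped.

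**Figure D1:**
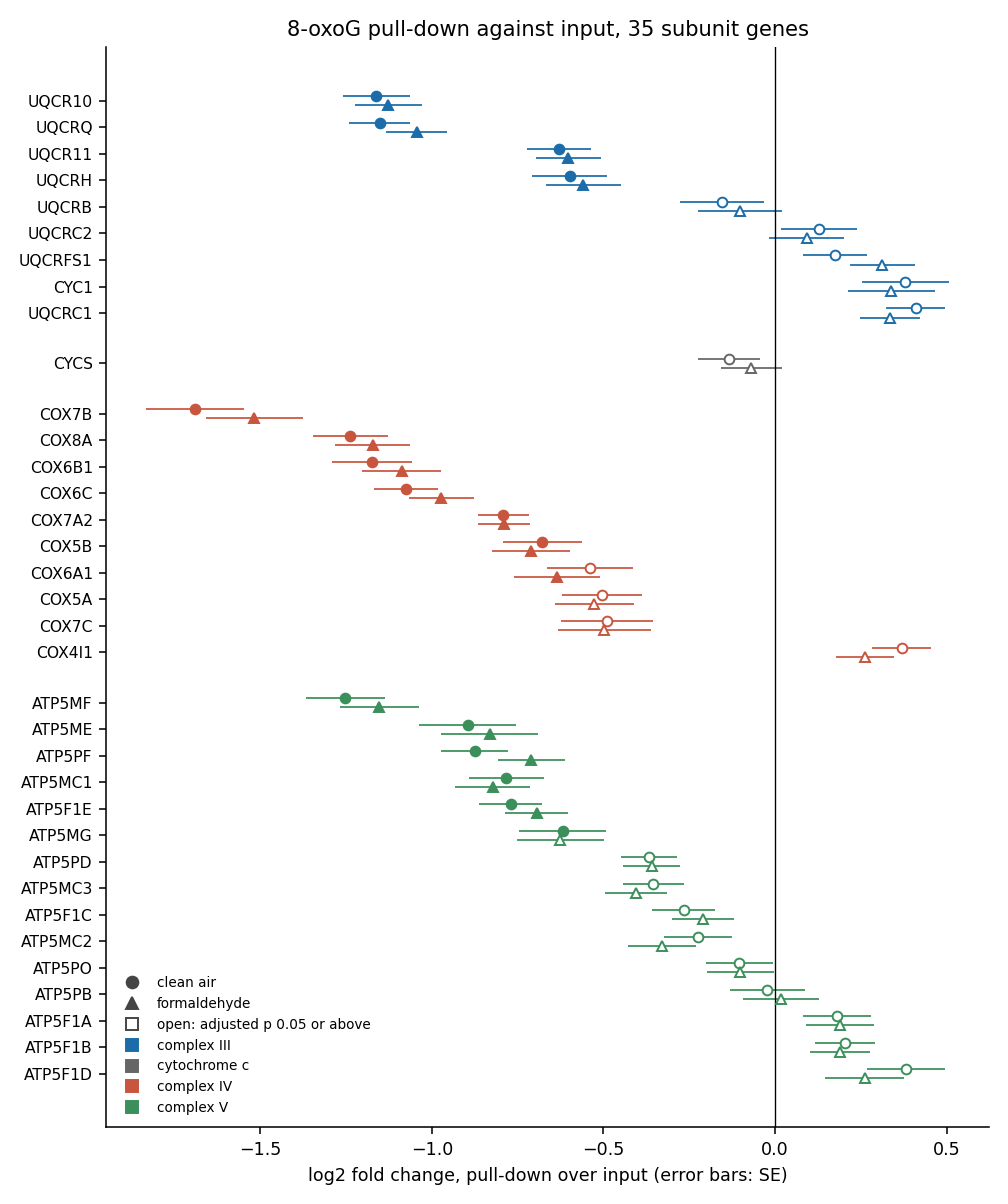
Log2 fold change of pull-down over input (x axis) for the 35 genes (y axis, grouped by complex and ordered by the clean air value), in clean air (circles) and after formaldehyde (triangles), with SE as bars and filled symbols where the adjusted p was under 0.05. Filled symbols, from -1.69 for COX7B to -0.56 for UQCRH, all lie left of 0, and the genes right of 0 in both treatments carry open symbols.

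In complex III most of the small supernumerary subunits were lower, and none of the nuclear-encoded core or electron-carrying subunits was. Of its 9 members 4 were lower in both treatments, and all 4 were among the 5 supernumerary subunits. UQCRQ stood at 187 and 182 CPM for CA_IN, 196 and 189.9 for FA_IN, 77.6 and 88.7 for CA_IP, and 93.2 and 93.8 for FA_IP. The pull-down values were all below the input values, and the log2 fold change was -1.15 ± 0.09 (SE) in clean air (adjusted p = 0.00026) and -1.04 ± 0.09 after formaldehyde (adjusted p = 0.000525). UQCR10, another small subunit, measured 70.4 and 68.8 CPM for CA_IN, 78.7 and 75.9 for FA_IN, 29.5 and 32.7 for CA_IP, and 34.2 and 36.6 for FA_IP. It too was lower in each pull-down library than in any input library, with log2 fold changes of -1.16 ± 0.10 and -1.13 ± 0.10 (adjusted p = 0.000376 and 0.000605). For UQCR11 the libraries gave 70.6 and 72.6 CPM for CA_IN, 80.9 and 75.3 for FA_IN, 45.3 and 47.2 for CA_IP, and 49.0 and 53.8 for FA_IP. The groups did not overlap, and the log2 fold changes were -0.63 ± 0.09 and -0.60 ± 0.09 (adjusted p = 0.0092 and 0.0136); leaving out CA_IN replicate 1 or 3 or CA_IP replicate 1 in clean air, or any of the 4 formaldehyde libraries after formaldehyde, gave adjusted p of 0.0506 to 0.0743 and of 0.067 to 0.176. UQCRH, the hinge protein, was lower by the same test at -0.60 ± 0.11 and -0.56 ± 0.11 (adjusted p = 0.0278 and 0.0456). Its near-identical copy UQCRHL held 8.76 to 9.56 CPM in input, beside 232 to 252 for UQCRH, and how reads were divided between the 2 genes is uncertain. The fifth small subunit, UQCRB, which helps to bind ubiquinone, had -0.15 ± 0.12 and -0.10 ± 0.12 (adjusted p = 0.703 and 0.946).

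The nuclear-encoded core proteins and electron-carrying subunits of complex III had positive log2 fold changes, none of which passed the test. Its electron-carrying cytochrome b, MT-CYB, is made from mitochondrial DNA and is not a member. It was lower at -0.78 ± 0.10 and -0.67 ± 0.10 (edgeR adjusted p = 0.00341 and 0.00976). UQCRC1, a core protein, had the highest log2 fold change of the complex in clean air, with 264 and 267 CPM for CA_IN, 296 and 287 for FA_IN, 328 and 376 for CA_IP, and 359.6 and 375 for FA_IP. All pull-down libraries were above all input libraries, with 0.41 ± 0.09 in clean air (adjusted p = 0.0578) and 0.33 ± 0.09 after formaldehyde (adjusted p = 0.164). CYC1, the haem-bearing cytochrome c1, had 0.38 ± 0.13 and 0.34 ± 0.13, UQCRFS1 had 0.17 ± 0.09 and 0.31 ± 0.09, and the second core protein UQCRC2 had 0.13 ± 0.11 and 0.09 ± 0.11. With the RNA pool as a block the adjusted p of UQCRC1 was 9.26e-05 in clean air and 0.00112 after formaldehyde, and that of CYC1 0.000398 and 0.0017. CYCS, which shuttles electrons between complexes III and IV, was at 411 and 431 CPM for CA_IN, 398 and 461 for FA_IN, 384 and 384 for CA_IP, and 404 and 414 for FA_IP. Input and pull-down overlapped, at -0.13 ± 0.09 and -0.07 ± 0.09 (adjusted p = 0.624 and 0.954).

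In complex IV 6 of 10 members were lower in clean air, against 4 of 9 in complex III and 6 of 15 in complex V; the difference between the complexes was not tested. All 10 encode supernumerary subunits around the mitochondrially made core, and 7 were lower after formaldehyde, with medians of -0.73 and -0.75. COX7B, a small membrane subunit, had the lowest log2 fold change of all 35 members. Its levels were 109 and 122 CPM for CA_IN, 112 and 131 for FA_IN, 31.6 and 40.0 for CA_IP, and 39.5 and 45.0 for FA_IP. The pull-down held less than the input in each library: the fold was 0.310 in clean air and 0.349 after formaldehyde, or -1.69 ± 0.14 and -1.52 ± 0.14 on the log2 scale (adjusted p = 0.000376 and 0.000831). COX8A, the ubiquitous form of another small membrane subunit, was at 149.5 and 138 CPM for CA_IN, 167 and 148 for FA_IN, 56.7 and 65.2 for CA_IP, and 73.4 and 66.1 for FA_IP. The 2 sets of libraries were well apart, with -1.24 ± 0.11 and -1.17 ± 0.11 (adjusted p = 0.000464 and 0.000831). COX6C gave 105 and 112 CPM for CA_IN, 116 and 122 for FA_IN, 48.9 and 54.2 for CA_IP, and 58.1 and 63.2 for FA_IP. Here too no pull-down library reached the lowest input library, and the log2 fold changes were -1.08 ± 0.09 and -0.97 ± 0.09 (adjusted p = 0.000447 and 0.000985).

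COX7A2, the ubiquitous form of a further small membrane subunit, had 163 and 158 CPM for CA_IN, 179 and 173 for FA_IN, 92.7 and 92.5 for CA_IP, and 101 and 103 for FA_IP. It varied little within groups, and the log2 fold changes were -0.79 ± 0.07 and -0.79 ± 0.07 (adjusted p = 0.000651 and 0.000897). COX6B1, on the intermembrane space side, was lower by the test at -1.17 ± 0.12 and -1.09 ± 0.12, and COX5B, the zinc-binding subunit on the matrix side, at -0.68 ± 0.11 and -0.71 ± 0.11 (adjusted p = 0.00081 and 0.00157 for COX6B1, 0.0181 and 0.0157 for COX5B). COX6A1 and COX7C, further membrane subunits, and COX5A, on the matrix side, had log2 fold changes between -0.54 and -0.49 in clean air, with adjusted p of 0.0783 for COX6A1, 0.141 for COX7C and 0.0749 for COX5A. COX4I1, with the longest coding sequence of the 10, differed with 138 and 139 CPM for CA_IN, 155 and 154 for FA_IN, 171 and 188 for CA_IP, and 177 and 194 for FA_IP. Its pull-down libraries were all above its input libraries, at 0.37 ± 0.08 and 0.26 ± 0.08, and did not pass the test (adjusted p = 0.0765 and 0.307); with the RNA pool as a block they did (adjusted p = 0.000358 and 0.0112).

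**Figure D2:**
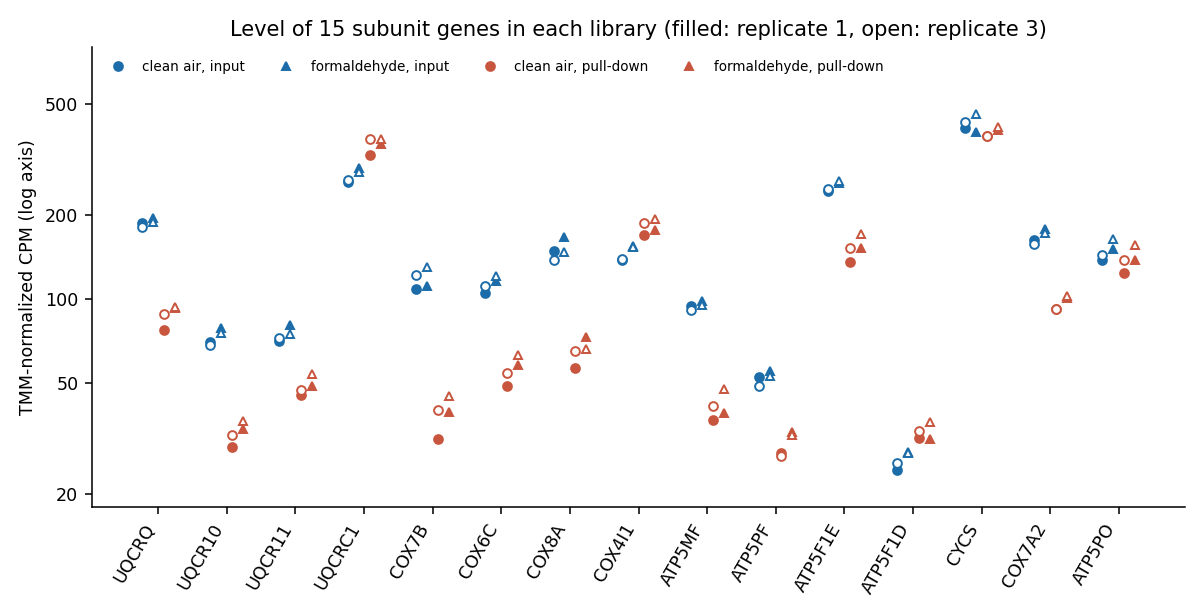
TMM-normalized CPM on a log axis (y) of the 15 genes given in full (x) in each of the 8 libraries, input in blue and pull-down in red, clean air as circles and formaldehyde as triangles, replicate 1 filled and replicate 3 open. For UQCRQ, UQCR10, UQCR11, COX7B, COX6C, COX8A, COX7A2, ATP5MF, ATP5PF and ATP5F1E the red points lie below the blue ones, for UQCRC1, COX4I1 and ATP5F1D above, and for CYCS and ATP5PO the ranges overlap.

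In complex V the membrane subunits e, f and g were lower in clean air and most of the head was not. Of 15 members 6 were lower in clean air and 5 after formaldehyde, with medians of -0.35 and -0.36. These 3 (ATP5ME, ATP5MF and ATP5MG) help to hold the synthase dimers together. ATP5MF was at 94.8 and 91.6 CPM for CA_IN, 98.3 and 95.7 for FA_IN, 36.9 and 41.4 for CA_IP, and 39.3 and 47.8 for FA_IP. Input exceeded pull-down in each library, and the log2 fold changes were -1.25 ± 0.11 and -1.15 ± 0.11 (adjusted p = 0.000537 and 0.00108). ATP5ME had -0.90 ± 0.14 and -0.83 ± 0.14 (adjusted p = 0.0129 and 0.0226), and ATP5MG -0.62 ± 0.13 and -0.63 ± 0.13 (adjusted p = 0.0494 and 0.0552). In the peripheral stalk, ATP5PF (coupling factor 6) measured 52.7 and 49.1 CPM for CA_IN, 55.5 and 53.0 for FA_IN, 28.1 and 27.4 for CA_IP, and 33.6 and 32.7 for FA_IP. It was lower at -0.88 ± 0.10 and -0.71 ± 0.10 (adjusted p = 0.00159 and 0.0065), with no overlap; after formaldehyde the adjusted p was 0.0754 without FA_IN replicate 1, 0.0721 without FA_IP replicate 1 and 0.0888 without FA_IP replicate 3. The other stalk subunits did not pass: ATP5PD had -0.37 ± 0.08 in clean air (adjusted p = 0.0683), ATP5PB, subunit b, -0.02 ± 0.11 (adjusted p = 0.971), and ATP5PO, the oligomycin sensitivity conferring protein, -0.10 ± 0.10 (adjusted p = 0.756).

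In the catalytic head and central stalk 1 of 5 members was lower. ATP5F1E, the epsilon subunit, was at 244 and 249 CPM for CA_IN, 261 and 266 for FA_IN, 136 and 153 for CA_IP, and 153 and 172 for FA_IP. The pull-down was lower in each library, with -0.77 ± 0.09 and -0.69 ± 0.09 (adjusted p = 0.0026 and 0.00582). After formaldehyde its adjusted p was 0.068 without FA_IN replicate 1, 0.0676 without FA_IN replicate 3 and 0.074 without FA_IP replicate 1. ATP5F1D, the delta subunit beside it in the stalk, was at 24.3 and 26.0 CPM for CA_IN, 28.5 and 28.1 for FA_IN, 31.7 and 33.8 for CA_IP, and 31.5 and 36.2 for FA_IP. These values ran the other way without overlap, at 0.38 ± 0.11 and 0.26 ± 0.11 (adjusted p = 0.176 and 0.545). The alpha and beta subunits ATP5F1A and ATP5F1B had 0.18 ± 0.10 and 0.20 ± 0.09 in clean air and 0.19 ± 0.10 and 0.19 ± 0.09 after formaldehyde, and the gamma subunit ATP5F1C had -0.27 ± 0.09 and -0.21 ± 0.09, none called. With the RNA pool as a block ATP5F1C was lower (adjusted p = 0.00414 and 0.0348), as were ATP5MC2 and ATP5MC3, and ATP5F1A and ATP5F1B were higher. Among the 3 genes of the c subunit, ATP5MC1 was lower (-0.78 ± 0.11 and -0.82 ± 0.11, adjusted p = 0.00601 and 0.00569), while ATP5MC3 had -0.35 ± 0.09 and -0.41 ± 0.09 and ATP5MC2 -0.23 ± 0.10 and -0.33 ± 0.10 (adjusted p from 0.0864 to 0.394). Their coding lengths were alike, 408, 423 and 426 nt for ATP5MC1, ATP5MC2 and ATP5MC3, and their mean annotated mRNA lengths were 636, 849 and 1272 nt; differences between the 3 genes were not tested.

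Summed over its members, complex IV held 1411 and 1440.2 CPM for CA_IN, 1548 and 1556 for FA_IN, 854 and 987 for CA_IP, and 934 and 1054 for FA_IP. The pull-down sum was 0.645 of the input sum in clean air and 0.641 after formaldehyde. For complex III these ratios were 0.924 and 0.927, and for complex V 0.932 and 0.936. Few genes made up much of the other sums: ATP5F1A and ATP5F1B held 753 and 757 of the 3309.6 to 3396 CPM of complex V in CA_IN, as means of the 2 libraries.

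The members lower without a block had short coding sequences. Of the 26 members with under 600 coding nt, 16 were lower in clean air and 16 after formaldehyde, and of the 9 with 600 coding nt or more (UQCRC1, UQCRC2, CYC1, UQCRFS1, ATP5F1A, ATP5F1B, ATP5F1C, ATP5PB and ATP5PO) 0 were lower. With the RNA pool as a block 22 of the 26 and 1 of the 9, ATP5F1C, were lower in each treatment. A MANE Select isoform gave a coding length for 13487 of the protein-coding genes tested, members included. Of the 1691 of these with short coding sequences 11.7% were lower in clean air, and of the 11796 others 0.11%. Across the 35 members Spearman's rank correlation between coding length and log2 fold change was 0.81 in clean air and 0.80 after formaldehyde. Across 13487 protein-coding genes with a MANE Select isoform it was 0.02 and -0.04. These correlations are across genes measured in the same 8 libraries, which are not independent replicates, and are given as a description.

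By annotated mRNA length (the mean over isoforms, weighted by input counts), 6 of the 7 members under 600 nt were lower in clean air, 7 of 14 from 600 to under 1000 nt, 2 of 11 from 1000 to under 2000 nt and 1 of 3 at 2000 nt or more. Among all protein-coding genes tested the lower share in the same classes was 39.7%, 17.0%, 1.48% and 0.111%. After formaldehyde the members' counts were 7, 7, 1 and 1. The median log2 fold change of the members in clean air went from -1.17 in the shortest class to -0.55 and -0.02 in the next 2, beside -0.91, -0.08 and 0.13 for all protein-coding genes. The lower member of the longest class was ATP5F1E, whose dominant isoform was annotated at 3665 nt around a coding sequence of 153 nt. Without ATP5F1E, left out after the data were seen, the rank correlation with annotated length was 0.77 in clean air, and with all 35 members it was 0.71; across 13835 protein-coding genes it was -0.17.

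**Figure D3:**
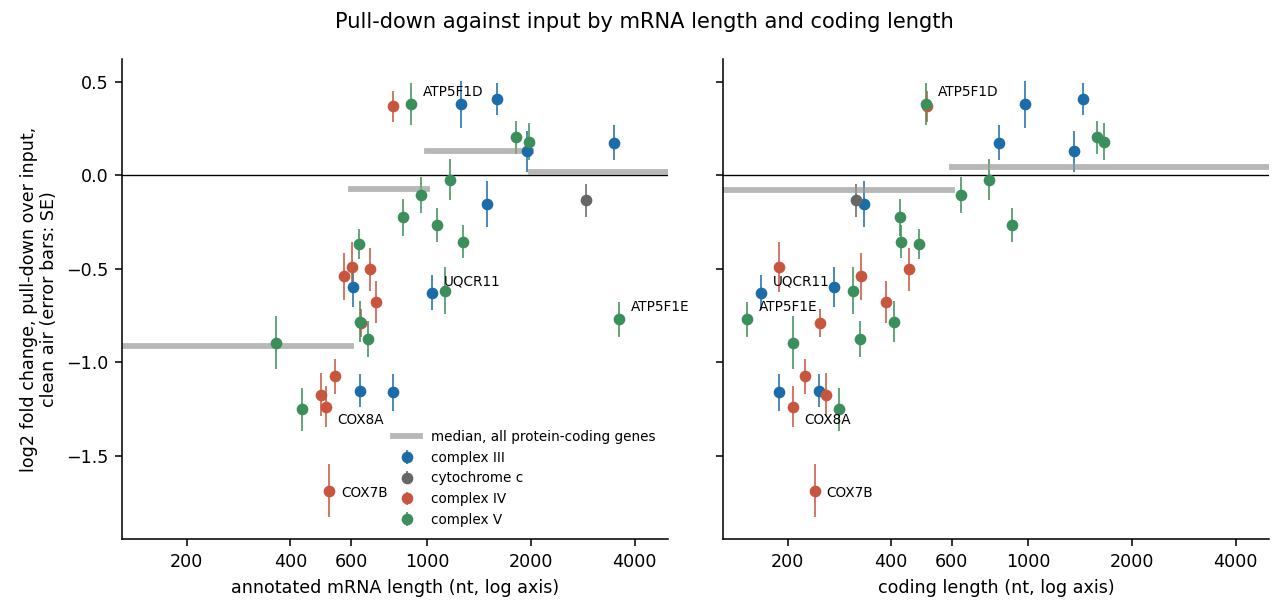
Log2 fold change of pull-down over input in clean air (y axis, SE as bars) against annotated mRNA length (left) and coding length (right), both in nt on a log axis, for the 35 genes coloured by complex. Grey lines mark the median of all protein-coding genes tested in the same length classes, on the right only those with a MANE Select isoform. Points rise from COX7B and COX8A at short coding lengths to the large subunits, the 9 members at 600 coding nt or more lie between -0.27 and 0.41, and ATP5F1E stands apart at the right of the left panel.

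Genes of mean length under 600 nt, coding or not, took 13.8% to 16.6% of the expected counts in the input libraries and 8.31% to 9.78% in the pull-down libraries, a lower share in each pull-down library than in any input library. The gap between annotated and effective length, which follows the fragment length that RSEM estimated, had medians of 216 to 222 nt in input and 209 to 233 nt in pull-down libraries, which overlapped. The part of RNA length itself in the members' log2 fold changes was not tested. The study made its libraries with a kit for small RNA, and how that kit recovered fragments of short mRNAs was not tested either.

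The guanine share of the coding sequence varied widely among members on both sides of 0. It ran from 22.2% in ATP5PF to 35.7% in UQCR11, both lower in the pull-down. The rank correlation between guanine share and log2 fold change across the 35 members was 0.10 in clean air and 0.08 after formaldehyde. Across 13487 protein-coding genes it was 0.58 and 0.46. COX8A, with 32.9% guanine, and COX5B, with 32.0%, were lower, and ATP5F1D, with 33.3%, and CYC1, with 31.7%, were above 0 without passing the test. Differences between these correlations were not tested. For input level, the rank correlation was -0.29 between mean input TPM and the clean air log2 fold change across the members.

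Isoforms of one gene share its sequence in part, and RSEM divides reads that fit several of them, so that isoform values are estimates. Of 199 tested isoforms of the members 11 were lower in clean air and 5 after formaldehyde, and 0 were higher, in an edgeR fit across all transcripts, of which 0.227% and 0.137% were lower and 0.0147% and 0.00737% higher. For the 30 members with at least 2 isoforms at a mean count of 50 or more, the longest and the shortest isoform were compared. The longest had a higher log2 fold change in 21 genes in clean air and in 21 after formaldehyde, 19 of them in both. The median differences were 0.22 and 0.16 on the log2 scale. These pairs also mix transcript types. The longest of ATP5MC1 was annotated as a retained intron, and the shortest of ATP5F1A as subject to nonsense-mediated decay. In COX7B the protein-coding isoform of 446 nt in the authors' annotation held 92.4% of input counts and had -1.81, beside -0.60 for an isoform of 2471 nt with 3.34%. In UQCR11 the main isoform of 1324 nt had -0.43 and that of 409 nt -1.31. ATP5F1E ran the other way, with -0.84 for 3665 nt and -0.14 for 1878 nt. COX8A had a single isoform with counts, of 507 nt. These within-gene differences were not tested.

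Pseudogenes are numerous for these families, and 27 members had at least 1 pseudogene of the same name, 158 in all. They held under 5% of the counts of gene and pseudogenes together for all 35 members in input, with a median of 0.0116%. The largest shares were those of UQCRFS1 (1.39%) and ATP5MC1 (0.869%).

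Related gene lists placed the members among their neighbours. Of 37 complex I subunits 11 were lower in both treatments and 0 higher, with medians of -0.17 and -0.19, and of 4 complex II subunits 0 were called. The 6 subunits of complexes III, IV and V made from mitochondrial DNA had medians of -0.85 and -0.76, with 4 lower in clean air and 3 after formaldehyde. MT-CO3, a core subunit of complex IV, was lowest among them at -1.65 ± 0.14 in clean air (edgeR adjusted p = 0.000374). All genes of mitochondrial DNA together took 13.5% to 14.8% of counts in input and 9.60% to 11.3% in pull-down libraries. Of 33 assembly factors of complexes III, IV and V, proteins that build the complexes without being part of them, 2 were lower in each treatment, with a median of 0.03 in clean air. Of 16 further subunits and paralogs 8 were tested and 4 were lower in both treatments: NDUFA4 (-1.92), now counted as a complex IV subunit, ATP5MK (-1.86) and ATP5MJ (-1.07), small proteins bound to ATP synthase, and HIGD2A (-0.99). No difference between these lists and the members was tested.

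The second question of the study was whether formaldehyde changed expression, by comparing FA_IN with CA_IN. No member was called (edgeR, lowest adjusted p = 0.945, 0 members at an unadjusted p under 0.05), and 0.00548% of all genes tested were called; DESeq2 called 3 genes and 0 members. With the replicate block 1.34% of all genes were lower and 0.0767% higher, and still 0 members were called. In bulk libraries scaled to a total, fewer cells and less RNA per cell cannot be told apart. The log2 fold changes ran from -0.02 for UQCRFS1 to 0.17 for ATP5F1D with SE of 0.07 to 0.14, and every 95% interval lay between -0.23 and 0.39. COX4I1, with the lowest unadjusted p (0.0957), went from 138 and 139 CPM to 155 and 154 CPM, a log2 fold change of 0.16 ± 0.08. COX7A2 was next, from 163 and 158 to 179 and 173 CPM (0.14 ± 0.07). ATP5PO stood at 138 and 145 CPM for CA_IN, 151 and 165 for FA_IN, 125 and 138 for CA_IP, and 138 and 157 for FA_IP. Its formaldehyde inputs were above its clean air inputs (0.16 ± 0.10), and its pull-downs overlapped its inputs (-0.10 ± 0.10 and -0.10 ± 0.10).

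The signs in input leaned one way: 34 of the 35 log2 fold changes were above 0, beside 53.4% of all genes tested, with a median of 0.11 against 0.02. Within replicate 1 the formaldehyde input was above the clean air input for 33 members and within replicate 3 for 35, with median log2 ratios of 0.09 and 0.10. The lean was not particular to the members. By annotated length, 74.6% of protein-coding genes under 600 nt and 83.2% of those from 600 to under 1000 nt were above 0. Of those of 2000 nt or more 48.1% were. The medians of these classes were 0.11, 0.12 and -0.0075. Of 37 complex I subunits 36 were above 0, with a median of 0.10. With library size in place of TMM 32 members were above 0 with a median of 0.07, and leaving out FA_IN replicate 3 left 29. Since the members share these 4 libraries and their scaling, the count is a description and no test was made of it.

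**Figure D4:**
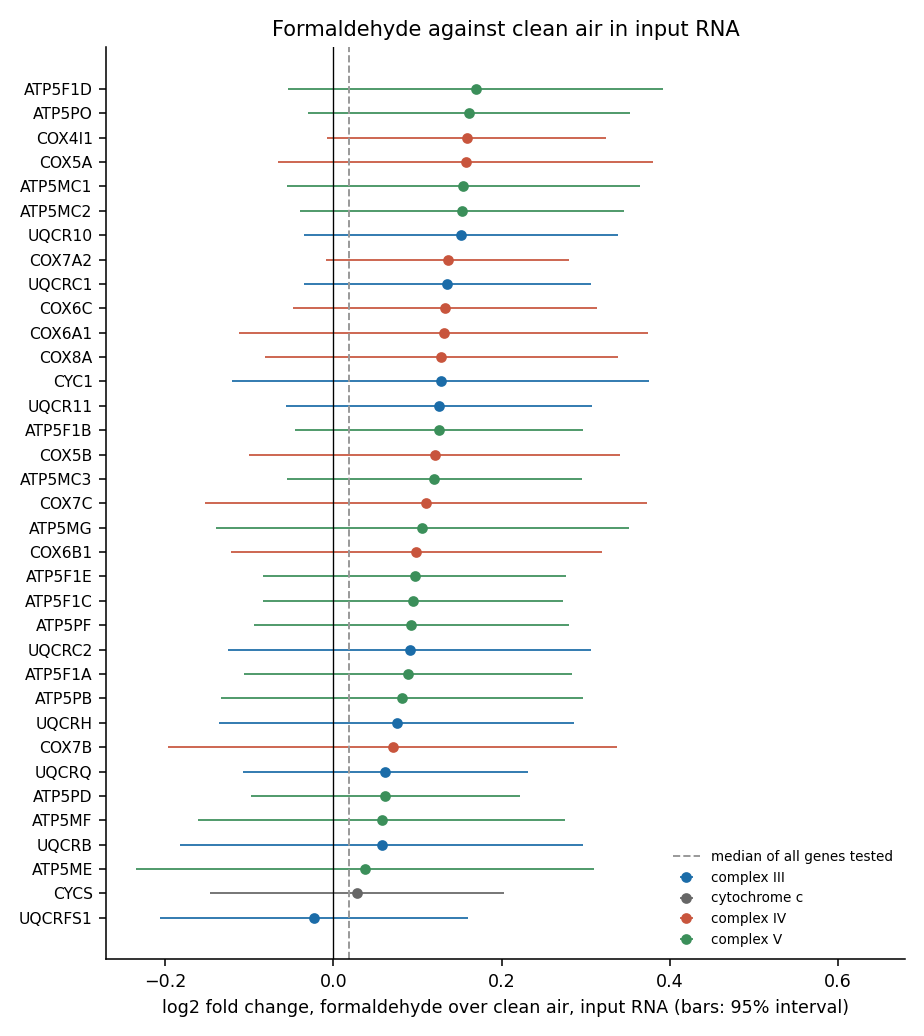
Log2 fold change of formaldehyde over clean air in input RNA (x axis, bars are 95% intervals from the SE) for the 35 genes (y axis, ordered by value and coloured by complex), with a dashed line at the median of all genes tested. The points lie between -0.02 and 0.17, 34 of 35 are right of 0, and each interval includes 0.

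The difference between the treatments in pull-down over input was tested as an interaction across all genes. No member was called, with adjusted p of 1 for all 35, and 0.0% of all genes tested were called (195 genes had an unadjusted p under 0.05, and DESeq2 called 3 genes and 0 members). The replicate block called 0.0164% and the RNA pool block 0.137% of all genes, and 0 members. The differences, formaldehyde minus clean air, ran from -0.12 for ATP5F1D to 0.17 for COX7B on the log2 scale, with SE of 0.11 to 0.20 and a median of 0.01. For COX7B the value was 0.17 ± 0.20, and for ATP5PF 0.16 ± 0.14. All 95% intervals lay between -0.44 and 0.56, so that with 2 libraries a group the data allow differences up to those bounds.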

How the data were processed

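Whole-transcriptome input RNA and RNA from an 8-oxoG immunoprecipitation were sequenced, 1 file per library. Per the submitters' processing notes and the study's methods, the authors trimmed reads with cutadapt, aligned them to GRCh38 with STAR 2.6.0a and quantified transcripts of the Ensembl 94 annotation with RSEM 1.2.25. The deposited files give expected counts, which are not normalized, and TPM, which the authors' RSEM run scaled by transcript length and library total. The strand setting used for counting is not given in the sources used here. The 3 deposited tables of the authors' own DESeq2 comparisons (fold changes and p-values) were not used.

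Expected counts were summed by gene and rounded, and genes reaching a count of 10 in 2 or more libraries were kept. All 8 libraries were fitted in edgeR 4.0.16 (R 4.3.3) with 4 group means, TMM scaling and the quasi-likelihood test, a prior count of 0.125 and Benjamini-Hochberg adjustment over all genes tested, with a limit of 0.05. The SE was the log2 fold change divided by the square root of F, and 95% intervals used the normal quantile. The fit was tested on counts simulated for independent libraries, without shared pools or replicate effects, so that test does not cover those. Symbols, coordinates and coding sequences came from GENCODE 44. The alternatives were DESeq2 1.42.0, library-size scaling, no count filter, a mean count of at least 50, fits on the 4 libraries of a comparison, replicate and RNA pool blocks, each library left out, and the dominant isoform of each gene in a transcript-level fit.

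Groups came from the labels, and replicate numbers from the names under which the libraries' counts were deposited. The study divided each RNA pool into input and pull-down, which is the source of the pairing. Deviations of the same replicate number correlated between all 6 pairs of groups, with r of 0.203 to 0.380 across genes. CA_IN with CA_IP gave 0.380 and FA_IN with FA_IP 0.246, while CA_IN with FA_IN, which share no pool, gave 0.283. These values therefore do not single out shared pools. Members and lists were chosen with earlier results of these data known. All 35 members are named. Values in every library are given for the 3 members of each complex with the lowest adjusted p in clean air, the member with the highest log2 fold change in each complex, CYCS, and the 3 with the lowest unadjusted p for formaldehyde in input. Protein sequences were not used here. The study's methods name the same antibody clone as the labels, and the extract protocol of the deposit names another. Which was used is therefore uncertain.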

Additional observations from a re-analysis of the deposited data

How the results depend on the processing

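The members lower in the pull-down numbered 14 to 23 in clean air and 14 to 23 after formaldehyde, against 16 and 16, over DESeq2, library size in place of TMM, both other count filters, the fits on 4 libraries and both blocks. With the dominant isoform of each gene in the transcript-level fit they numbered 7 and 4; that fit tested 67873 transcripts. Leaving out 1 library gave 11 to 16 in clean air and 8 to 17 after formaldehyde. The members higher in the pull-down numbered 0 and became, in clean air, 2 with DESeq2, 5 with library size, 1 with no filter, 4 with the replicate block and 6 with the RNA pool as a block; after formaldehyde they became 3 with library size, 4 with the replicate block and 7 with the RNA pool as a block. The replicate block left 22 members lower in each treatment, beside 706 of the 18242 genes tested in clean air and 586 after formaldehyde. Over all genes it called 1235 and 367 higher. In clean air DESeq2 called 131 of 18242 genes higher, and the fit with no filter 147 of 35784. The cause of these moves was not tested. With library size, log2 fold changes turned from negative to 0.0135 and 0.0998 for CYCS in clean air and after formaldehyde and to 0.0418 and 0.0678 for ATP5PO. Over the libraries left out, CYCS after formaldehyde ran from -0.163 to 0.0595, above 0 without FA_IN replicate 3. In input RNA and in the interaction 0 members were called under any alternative run. Over all genes, formaldehyde in input called 1 gene lower and 0 higher without a block and 244 lower and 14 higher with the replicate block. The interaction could not be computed on 4 libraries, nor the RNA pool block for formaldehyde in input. With 2 libraries a group, the SE of a log2 fold change was 0.07 to 0.14 in each pull-down comparison, which sets the smallest change that can be called.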
